A study of Mus musculus with 2 samples.

Results

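The 9 interferon-stimulated genes *Isg15*, *Rsad2*, *Ifit1*, *Ifit3*, *Irf7*, *Irf1*, *Bst2*, *Gbp2* and *Oasl2* were read in single cells sorted from mouse hindlimb muscle. They were picked out by their symbols and are 9 of the 27998 genes in the deposited count tables. All 9 were found. The data are 2 single-cell RNA libraries of YFP+ CD11b- cells from Fsp1-Cre:R26R-EYFP mice. One library came from untreated mice (day 0), and the other from mice 28 days after hindlimb ischemia surgery (day 28). In both groups the Cre recombinase is driven by the promoter of Fsp1 (*S100a4*) and switches on the yellow fluorescent reporter. That promoter is, or once was, active in a sorted cell or in a cell it descends from. The labels give neither the number of mice nor their age. With 1 library per group no test of the surgery was possible, and the intervals below cover counting error alone.

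Interferons are secreted proteins that warn cells of infection. Type I interferons act through the receptor pair Ifnar1 and Ifnar2 and interferon gamma through Ifngr1 and Ifngr2; both signal through Janus kinases. Type I interferons act on promoters that hold a motif called the interferon-stimulated response element (ISRE), to which Irf9 directs its complex, and interferon gamma acts on those with a gamma-activated site (GAS). Plasmacytoid dendritic cells, known for making large amounts of type I interferon, hold *Irf7* protein ready and carry Bst2 on their surface.

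By known role the genes fall into 3 sets. *Isg15* encodes a ubiquitin-like protein, *Rsad2* encodes viperin, *Ifit1* and *Ifit3* encode proteins that act against viral RNA, and *Oasl2* encodes a relative of the oligoadenylate synthetases. *Irf7* and *Irf1* encode transcription factors that act within the response itself. *Bst2* encodes tetherin, which holds budding virus at the cell surface, and *Gbp2* encodes a guanylate-binding protein induced mainly by interferon gamma.

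The promoter windows of these genes, from 250 bases before to 50 bases after the RefSeq start site (build GRCm38.p6), are shown because the ISRE is the motif through which type I interferons act on many such genes. An ISRE core (GAAANNGAAA, or TTTCNNTTTC on the other strand) was present in the windows of 6 of the 9 genes. Of 32851 RefSeq promoter windows of 300 bases, 3.44% held it. In the 5 stretches that follow, written 5′ to 3′ on each gene's own strand, capitals mark the ISRE cores.

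Isg15: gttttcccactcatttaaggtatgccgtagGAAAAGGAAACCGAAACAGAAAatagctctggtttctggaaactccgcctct
Rsad2: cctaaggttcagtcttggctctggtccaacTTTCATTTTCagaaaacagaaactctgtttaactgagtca
Ifit1: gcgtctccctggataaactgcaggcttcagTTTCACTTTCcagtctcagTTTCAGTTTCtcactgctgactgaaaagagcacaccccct
Ifit3: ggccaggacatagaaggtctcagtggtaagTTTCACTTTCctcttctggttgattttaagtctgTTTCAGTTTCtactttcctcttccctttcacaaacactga
Bst2: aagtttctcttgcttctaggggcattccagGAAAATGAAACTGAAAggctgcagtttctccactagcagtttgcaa

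These stretches lie at chr4:156200845-156200926 (*Isg15*, minus strand), chr12:26456533-26456602 (*Rsad2*, minus strand), chr19:34640755-34640843 (*Ifit1*, plus strand), chr19:34583343-34583446 (*Ifit3*, plus strand) and chr8:71537557-71537632 (*Bst2*, minus strand). *Isg15* had 3 overlapping cores, the first at -78 from the start site, and *Bst2* had 2 overlapping cores, the first at -130. *Ifit1* (-104 and -85) and *Ifit3* (-156 and -122) each had 2 separate cores with the same letters. At least 2 cores stood in 0.225% of all windows. *Rsad2* had 1 core at -120 and *Gbp2* 1 core at -59. The windows of *Irf7*, *Irf1* and *Oasl2* held no match. A GAS core (TTCNNNGAA, which reads the same on both strands) was found in the windows of *Irf1* (at -90) and *Bst2* (at -136, overlapping its first ISRE core); 8.30% of all windows held one. A match describes these letters only.

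The day 0 library had 2668 barcodes and the day 28 library 2653, with medians of 4844 and 12265 UMIs (unique molecular identifiers, each one counted RNA molecule). The lowest total of a barcode was 3001 UMIs at day 0 and 4175 at day 28. After filters 2609 and 2580 cells were kept. The libraries shared 13 barcodes. *Ptprc*, the pan-leukocyte gene CD45, was detected in 1754 day 0 and 1456 day 28 cells, and *S100a4* in 594 and 1193. The fibroblast collagen gene *Col1a1* was detected in 14 and 15 cells, and only 12 and 4 cells formed a fibroblast-like class. Most of the sorted cells therefore carried blood-cell markers. The cells fell into 22 clusters, built without the 9 genes and named "-like" from marker lists that hold none of them; 8 classes had at least 50 cells in each library and were compared.

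The genes showed 3 patterns across cell types. *Bst2*, *Irf7* and *Irf1* were highest in plasmacytoid dendritic cell-like (pDC-like) cells, *Isg15* and *Rsad2* in erythroid-like cells, and *Gbp2* and *Ifit3* in the T or NK lymphocyte-like (T/NK-like) cells of the day 0 library. The intervals of *Gbp2* and *Ifit3* there overlapped those of the next highest class. The same was true of the highest levels of *Ifit1* and *Oasl2*, which were put in none of these patterns. Levels are in CPM, here the UMIs of a gene summed over the cells of a class per 1000000 UMIs of that class in the same library. They were taken in the 20 combinations of class and library that held at least 50 cells. The labels name a 3' chemistry, which reads transcript ends, so levels were not scaled by gene length.

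**Figure D1:**
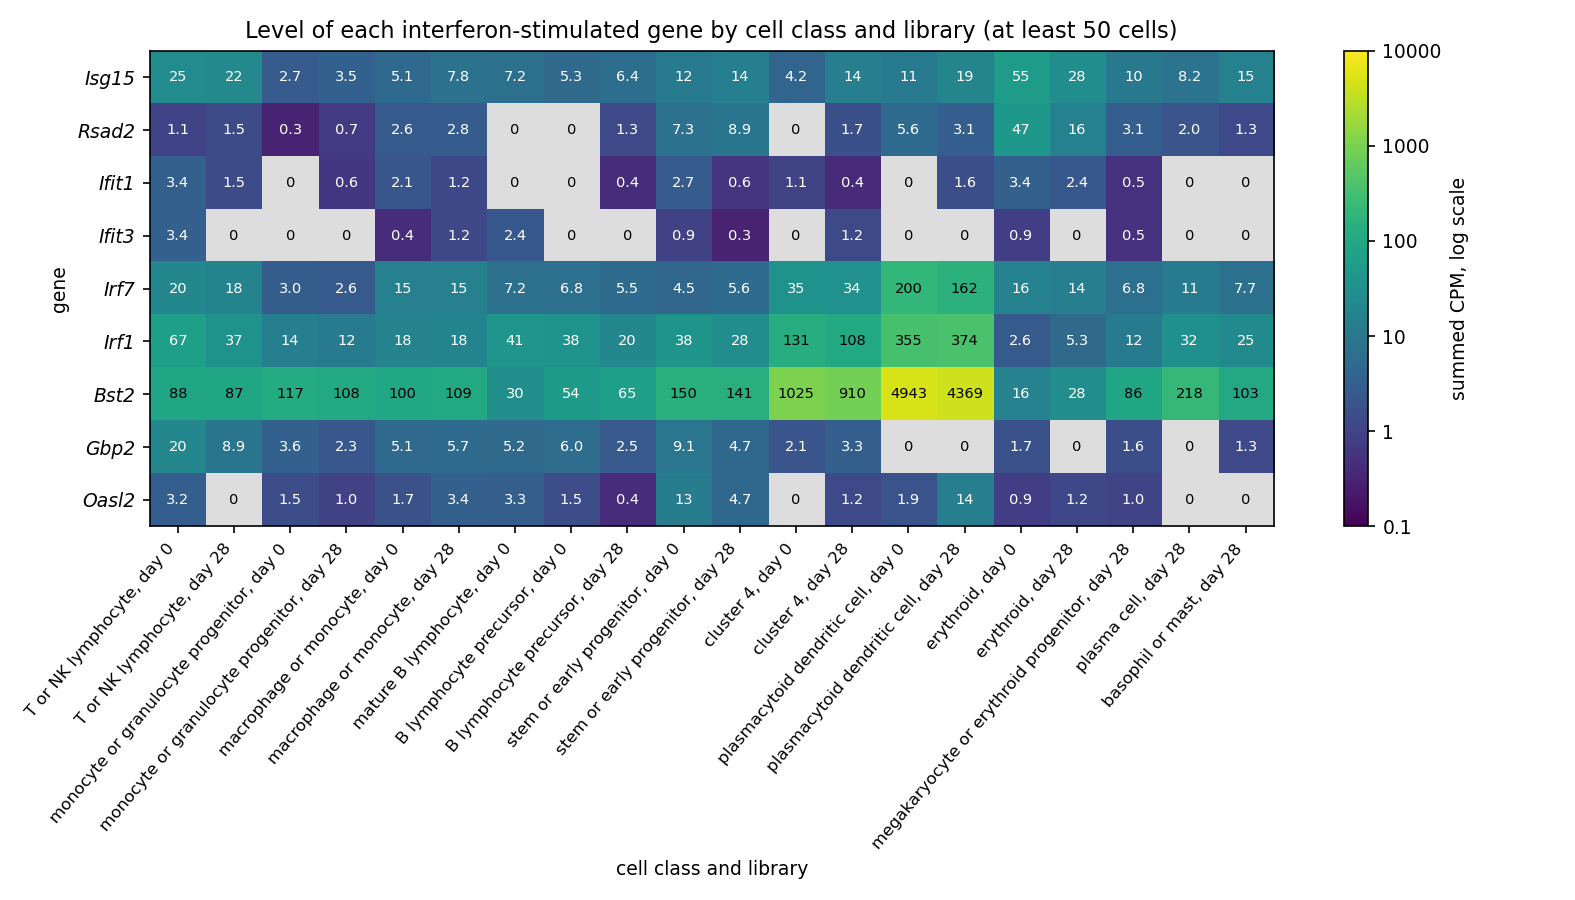
Summed CPM (colour on a log scale, value printed in each cell; grey for 0) of the 9 genes (rows) in the 20 combinations of cell class and library with at least 50 cells (columns). *Bst2*, *Irf7* and *Irf1* peak in the pDC-like columns, and *Isg15* and *Rsad2* in the erythroid columns, where *Irf1* is lowest.

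*Bst2* was by far the most abundant of the 9, with 5100 of their 6997 summed UMIs at day 0 and 8561 of 10728 at day 28. In the 118 and 119 pDC-like cells it stood at 4943 CPM at day 0 (95% exact Poisson interval 4756 to 5135) and 4369 at day 28 (4208 to 4533). Every pDC-like cell held *Bst2*: the lowest cell had 10 UMIs at day 0 and 8 at day 28, and the median was 22 and 23. The next highest class was cluster 4, at 1025 and 910 CPM. This cluster (116 and 257 cells) was left without a cell type name because it scored almost equally for plasmacytoid and conventional dendritic cell markers; *Cd7*, *Ms4a6c* and *Cox6a2* led it. The lowest *Bst2* level was in erythroid-like cells, 16.3 and 27.9 CPM.

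*Irf7* and *Irf1* were also highest in pDC-like cells and next highest in cluster 4, at lower levels than *Bst2*, while the other classes were ordered differently. *Irf7* reached 200 CPM (interval 164 to 242) at day 0 and 162 (132 to 196) at day 28 in pDC-like cells, and 34.7 and 34.3 in cluster 4, and the intervals of these classes did not overlap. *Irf7* was detected in 66 of 118 and 62 of 119 pDC-like cells. *Irf1*, a factor that many stimuli besides interferon induce, stood at 355 and 374 CPM in pDC-like cells, 131 and 108 in cluster 4, and 67.4 and 37.0 in T/NK-like cells. Its lowest level was in erythroid-like cells, where 3 and 13 UMIs gave 2.57 and 5.26 CPM. Across the 20 sums the profiles of *Irf1* and *Bst2* had a Pearson correlation of 0.90 on the log scale, and those of *Irf7* with *Irf1* and with *Bst2* of 0.83. These are descriptions, since sums of 1 library share its depth and its cells.

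Of 7619 other genes ranked by likeness to the summed level of the 9, the closest were *Siglech* (Pearson correlation 0.978), *Cd300c* (0.977), *Cox6a2* (0.975), *Lifr* (0.974), *Mycl* (0.969), *Paqr5* (0.967), *Tmem221* (0.966) and *Klra17* (0.966). All 8 were highest in pDC-like cells; *Siglech*, *Cd300c* and *Cox6a2* belong to the marker list that named the class. Since *Bst2* dominated the sum, this is chiefly its profile.

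*Isg15* and *Rsad2* were ordered differently. In the 103 and 132 erythroid-like cells *Isg15* stood at 54.8 CPM at day 0 (interval 42.2 to 70.0) and 27.9 at day 28 (21.7 to 35.3). Next came the T/NK-like cells with 25.3 (20.96 to 30.3) and 22.2 (12.4 to 36.7), whose intervals overlap that of the day 28 erythroid-like cells. In pDC-like cells *Isg15* was at 11.2 and 18.7, and its lowest value was 2.70 in the monocyte or granulocyte progenitor-like cells of day 0. *Rsad2* was at 47.1 (35.5 to 61.3) and 15.8 (11.2 to 21.6) in erythroid-like cells. The next class, stem or early progenitor-like cells, had 7.26 and 8.88, and no UMI was seen in the 403 mature B lymphocyte-like cells of day 0. The *Isg15* and *Rsad2* profiles had a correlation of 0.75 over the 20 sums, against -0.16 for *Isg15* with *Bst2*.

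A few cells carried much of the erythroid signal. *Isg15* was detected in 32 of 103 and 25 of 132 erythroid-like cells and *Rsad2* in 20 and 20. One day 0 cell held 17 of the 64 *Isg15* UMIs and 23 of the 55 *Rsad2* UMIs, and one day 28 cell held 30 of the 69 *Isg15* UMIs. Without the 2 highest cells of each library, *Isg15* stood at 37.4 and 14.4 CPM and *Rsad2* at 20.9 and 11.1. At day 0 these values were still above the full level of each other class with at least 50 cells; at day 28 that held for *Rsad2*, while *Isg15* was then below its 22.2 in T/NK-like, 18.7 in pDC-like and 15.5 in basophil or mast cell-like cells. Haemoglobin content also differed between the libraries: globin UMIs made up a median of 17.1% of an erythroid-like cell's UMIs at day 0 and 3.12% at day 28. In the 70 and 30 cells with at least 10% globin UMIs, *Isg15* was at 93.1 and 59.0 CPM and *Rsad2* at 78.4 and 38.5. In the 33 and 102 cells below 10%, *Isg15* was at 12.6 and 22.1 and *Rsad2* at 12.6 and 11.5. Both genes were thus higher in the cells rich in globin in each library. The day 28 cell with 30 *Isg15* UMIs was an exception, with 0.13% globin among its 32775 UMIs; it also held 7 UMIs of *Rsad2*, 4 of *Ifit1*, 5 of *Irf7* and 7 of *Bst2*. Macrophage markers were near 0 in it, with 2 UMIs.

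**Figure D2:**
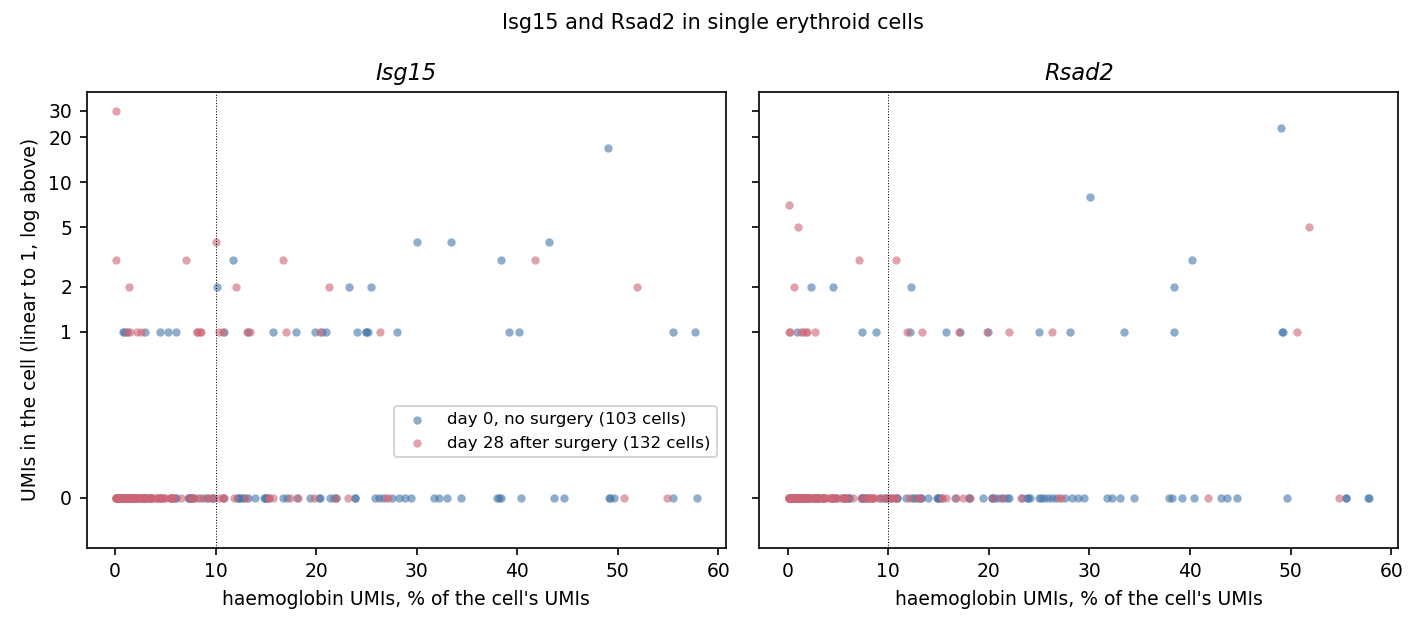
UMIs of *Isg15* (left) and *Rsad2* (right) in each erythroid-like cell (vertical axis, linear to 1 and log above) against the percent of the cell's UMIs from globin genes (horizontal axis); blue points are the 103 day 0 cells, red points the 132 day 28 cells, and the dotted line marks 10%. Most cells sit at 0, and single cells with 17 and 30 *Isg15* UMIs and 23 *Rsad2* UMIs stand far above the others.

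*Gbp2* was highest in the T/NK-like cells of day 0, at 20.2 CPM (16.3 to 24.7), with 8.89 (3.26 to 19.3) at day 28. Within that class it was at 29.1 in cluster 1, led by *Cd8b1*, *Dapl1* and *Lef1*, which held 546 of the 1057 day 0 cells. The next class for *Gbp2* was the stem or early progenitor-like cells of day 0, at 9.08 (4.35 to 16.7), an overlapping interval. No *Gbp2* UMI was seen in pDC-like cells of either library, where 3 UMIs, the limit that a count of 0 allows, would be 5.60 and 4.67 CPM. *Oasl2* reached 12.7 in the stem or early progenitor-like cells of day 0 and 14.0 in the pDC-like cells of day 28, the latter on 9 UMIs. *Ifit1* and *Ifit3* were barely detected, with 29 and 25 UMIs in the whole day 0 library and 32 and 12 at day 28. For *Ifit3*, 16 of the 25 day 0 UMIs lay in T/NK-like cells, which made up 40.5% of the kept day 0 cells. *Ifit3* has a near-identical neighbour, *Ifit3b*, so reads of the pair may have been lost or split in counting.

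Cells that held several of the 9 genes mostly held *Bst2* or *Irf1*. To compare depths, each cell was thinned at random to 3000 UMIs. Of all kept cells, 12.6% (329 of 2609, 95% Clopper-Pearson interval 11.4 to 13.9) held 2 or more at day 0 and 10.8% (278 of 2580, 9.60 to 12.0) at day 28. Without thinning the shares were 23.7% and 35.0%, the order reversing with the deeper day 28 library. Among the thinned cells with 2 or more, *Bst2* was present in 79.0% and 90.3%, and *Irf1* in 66.3% and 69.1%. The class mix behind the share differed: T/NK-like cells made up 38.3% of those cells at day 0 and 2.88% at day 28, and they made up 40.5% and 3.88% of all kept cells.

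By class the share was highest in pDC-like cells, at 82.2% and 81.5% (interval 74.1 to 88.6, and 73.4 to 88.0), and next in cluster 4, at 32.8% and 31.5%. Stem or early progenitor-like cells stood at 15.8% and 10.2%, T/NK-like cells at 11.9% and 8%, and erythroid-like cells at 7.77% and 2.27%. Macrophage or monocyte-like cells were at 6.51% and 4.83%, B lymphocyte precursor-like cells at 3.09% and 1.69%, and monocyte or granulocyte progenitor-like cells at 2.04% and 2.79%. In every one of the 8 classes the intervals of the libraries overlapped. RNA free in the droplets can give a UMI in a cell that does not make it. No class known to lack all 9 genes was at hand to measure that share, and depth before thinning differed (a day 0 median of 22636 UMIs in monocyte or granulocyte progenitor-like and 4190 in pDC-like cells), so no order is read among the classes with low shares.

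The 5 antiviral effectors *Isg15*, *Rsad2*, *Ifit1*, *Ifit3* and *Oasl2* were seldom found together. Only 19 thinned cells at day 0 (0.728%) and 11 at day 28 (0.426%) held 2 or more of them. The highest class share was in erythroid-like cells, 4.85% at day 0 (1.59 to 11.0) and 1.52% at day 28 (0.184 to 5.37). In pDC-like cells it was 0.847% and 0%, although 82.2% and 81.5% of these cells held 2 or more of the 9. No cell of either library held more than 5 of the 9 after thinning.

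**Figure D3:**
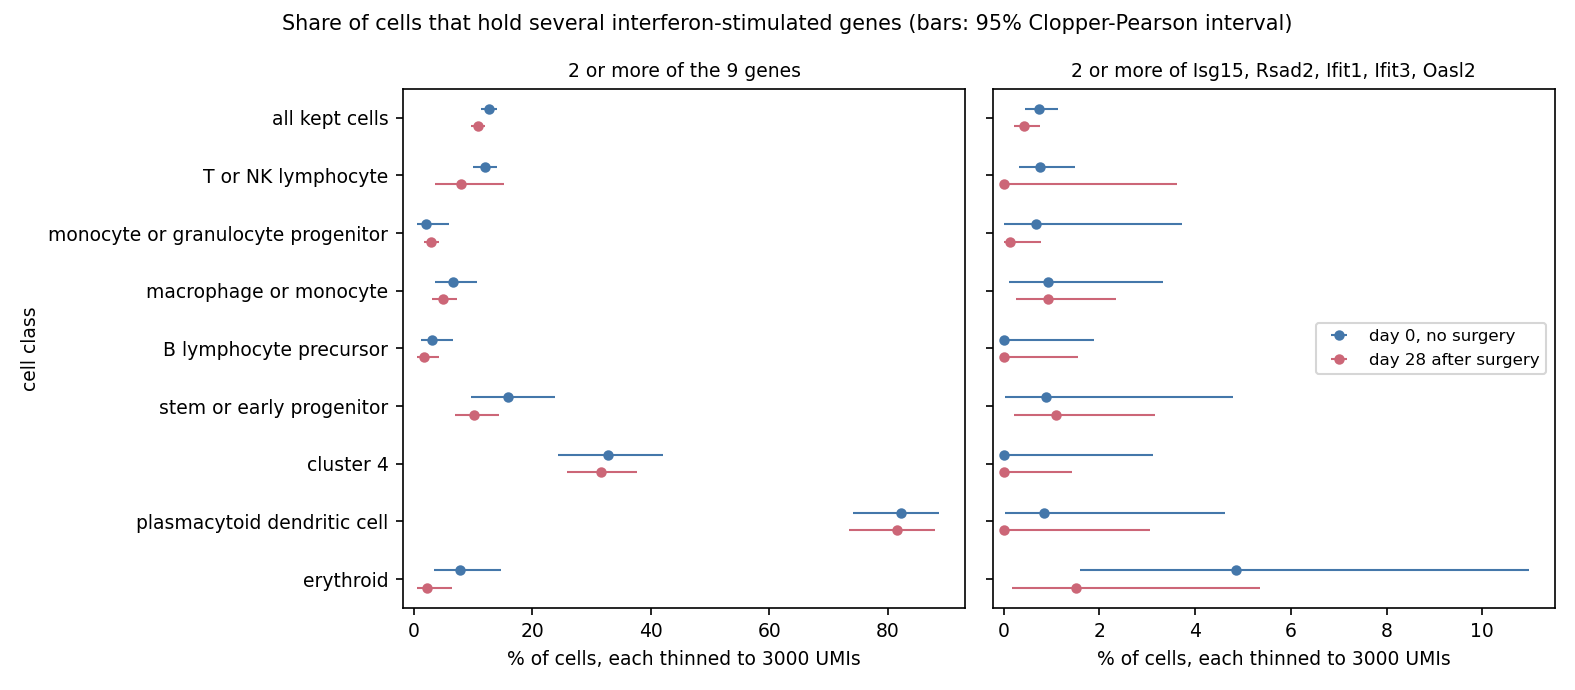
Percent of cells, each thinned to 3000 UMIs, that held 2 or more of the 9 genes (left) or of *Isg15*, *Rsad2*, *Ifit1*, *Ifit3* and *Oasl2* (right), by cell class, at day 0 (blue) and day 28 (red) with 95% Clopper-Pearson intervals. pDC-like cells exceed 80% on the left but are at or near 0 on the right, where erythroid-like cells at day 0 reach 4.85%.

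Over all kept cells, those with *Isg15* held another effector at a higher share than those without it. At day 0, 6.40% of the 125 thinned cells with *Isg15* also held *Rsad2*, against 0.684% of cells without *Isg15*; at day 28 the values were 6.49% and 0.599%. In erythroid-like cells of day 0, 5 of 11 cells with *Isg15* held *Rsad2* (45.5%), against 6.52% of the others. These 5 were among the 8 day 0 cells of all classes that held both. The direction for *Rsad2* varied with class and library. In stem or early progenitor-like cells of day 0, 0 of 7 cells with *Isg15* held it, against 2.80% of the others. At day 28 it was 2 of 15 (13.3%) against 1.54%. In T/NK-like cells of day 0, 6.41% of the 78 cells with *Isg15* held *Ifit3*, against 0.715%. For *Bst2* and *Irf1* the values also depended on the class. Over all day 0 cells *Irf1* was found in 26.5% of cells with *Bst2* and 12.4% of those without (20.7% and 5.75% at day 28), and in cluster 4 of day 0 in 35.6% and 3.85%, but in T/NK-like cells of day 0 in 17.3% and 16.8%. These are counts of cells in 1 library each and carry no test.

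The other 49 listed type I response genes were compared between cells that held 2 or more of the 5 effectors, here without thinning, and the rest of their class. In the T/NK-like cells of day 0, the 10 such cells had a summed 4972 CPM of those genes and the other cells 2301. In macrophage or monocyte-like cells the values were 9529 (3 cells) against 3282 at day 0 and 5150 (11 cells) against 2443 at day 28. In erythroid-like cells the gap in the sum was smaller, 1513 (12 cells) against 1082 at day 0 and 1354 (10 cells) against 887 at day 28. *Isg20* and *Ly6e* made up much of that sum. *Isg20* stood at 401 against 393 CPM at day 0 and 354 against 360 at day 28, and *Ly6e* at 378 against 271 and 259 against 191. The gap without these genes was not computed. In stem or early progenitor-like cells the gap was also smaller, 1996 (5 cells) against 1469 at day 0 and 1284 (8 cells) against 985 at day 28. In monocyte or granulocyte progenitor-like cells the values were 1546 (2 cells) against 1301 at day 0 and 1814 (5 cells) against 936 at day 28. The erythroid cells with 2 or more also had the higher globin share, a median of 26.5% against 15.1% at day 0 and 10.4% against 2.97% at day 28. Its part in the difference was not tested.

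Within classes, a gene was compared between day 0 and day 28 where its mean level was at least 10 CPM, which gave 26 combinations of gene and class. *Ifit1*, *Ifit3* and *Oasl2* reached that level in none of the 8 classes. The exact counting interval of the ratio lay below 1 in 7 of the 26 combinations and above 1 in 1. The ratio was at most 0.5 in 2 and at least 2 in none. Among all genes, by class, 9.97% to 31.7% had an interval below 1 and 5.04% to 17.0% had one above. Ratios of at most 0.5 were found in 1.35% to 7.88% of all genes and of at least 2 in 0.413% to 5.97%. Neither the mice nor the libraries were replicated, so an interval clear of 1 says only that these 2 libraries differed by more than counting error. Day 0 also held cells shallower than any at day 28, whose lowest total was 4175 UMIs. The day 0 median was 3815 UMIs in T/NK-like and 4190 in pDC-like cells. Ratios of single genes were not recomputed without the shallow cells. The summed level was, as given in the closing section.

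In erythroid-like cells 2 of the 4 genes compared were lower at day 28. *Isg15* had 64 UMIs at day 0 and 69 in the larger day 28 sum, a ratio of 0.509 (0.357 to 0.726). *Rsad2* had 55 and 39, a ratio of 0.335 (0.216 to 0.514). *Bst2* was higher, with 19 and 69 UMIs and a ratio of 1.71 (1.02 to 3.02). *Irf7* gave 0.844 (0.468 to 1.57). As background, 11.3% of 5732 genes in this class had an interval below 1 and 17.0% above it; 2.46% had a ratio of at most 0.5 and 4.31% of at least 2. The fall in globin content between the libraries, given above, moved with these ratios, and the differences were not the same within levels of globin. In cells with at least 10% globin the ratio was 0.634 for *Isg15*, with an interval that included 1, 0.491 for *Rsad2*, with an interval below 1, and 0.857 for *Bst2*. In cells under 10% globin it was 1.75 for *Isg15* and 0.913 for *Rsad2*, both with intervals that included 1, and *Bst2* had a log2 ratio of 1.07. Of the 46 day 28 *Isg15* UMIs in cells under 10% globin, 30 came from the single cell described above. The *Isg15* ratio of 1.75 therefore rests largely on that cell. With each cell thinned to 3000 UMIs the ratios of *Isg15* and *Rsad2* were 0.319 and 0.136, still with intervals below 1, and that of *Bst2* was 1.25, with an interval that included 1; without the 2 cells richest in it, *Rsad2* had 0.533.

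In T/NK-like cells *Irf1* stood at 67.4 CPM at day 0 (317 UMIs) and 37.0 at day 28 (25 UMIs), a ratio of 0.549 (0.350 to 0.826). *Gbp2* gave 0.440 (0.158 to 0.994) on 95 and 6 UMIs, while *Bst2* (0.991), *Isg15* (0.878) and *Irf7* (0.871) had intervals that included 1. Thus 2 of 5 genes lay below 1 and 0 above, where 13.3% and 14.8% of 6199 genes did. *Gbp2* was the only one of the 5 with a ratio of at most 0.5, as 7.36% of all genes had; 5.97% had a ratio of at least 2. The class was made of different cells at the 2 times: cluster 1 gave 546 of the day 0 cells but 10 of the day 28 cells, while cluster 8, led by *Ccl5*, *Xcl1* and *Klrd1*, held 218 and 65. In cluster 8 alone *Irf1* had a ratio of 0.603 (0.318 to 1.07) and *Gbp2* one of 0.223, also with an interval that included 1. After thinning the ratios were 0.683 and 0.826, with intervals that included 1. Without the top cell of each library *Gbp2* had a ratio of 0.226, and without the top 2 one of 0.155.

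In B lymphocyte precursor-like cells *Irf1* was at 37.5 and 20.4 CPM, a ratio of 0.543 (0.357 to 0.823), or 0.512 after thinning with an interval that included 1, and *Bst2* at 54.1 and 64.9. There 22.5% of 6675 genes had an interval below 1 and 5.47% above; 3.97% had a ratio of at most 0.5 and 1.09% of at least 2. In pDC-like cells *Bst2* had a ratio of 0.884 (0.838 to 0.932) and in cluster 4 one of 0.888 (0.823 to 0.958). In pDC-like cells 9.97% of 6659 genes had an interval below 1 and 5.69% above, and 7.88% and 4.96% had ratios of at most 0.5 and at least 2. In cluster 4 the intervals of 15.1% of 6969 genes lay below 1 and of 6.7% above, and 4.1% and 1.59% passed those ratios. With 2646 and 2805 *Bst2* UMIs in pDC-like cells, such small differences exceed counting error; on the log2 scale they are -0.18 and -0.17, where the median gene of the same classes was at -0.14 and -0.12. *Irf1* (1.05, 0.867 to 1.28), *Irf7* (0.810, 0.613 to 1.07) and *Isg15* (1.67, 0.579 to 5.41) in pDC-like cells had intervals that included 1, as did *Irf1* and *Irf7* in cluster 4. So did all 3 genes compared in macrophage or monocyte-like cells, where 25.6% of all genes had an interval below 1 and 7.98% above, and 1.84% and 0.471% had ratios of at most 0.5 and at least 2. The same was true of both genes compared in monocyte or granulocyte progenitor-like cells (31.7% below and 9.85% above; 1.35% and 0.413% past the ratios). In stem or early progenitor-like cells none of 3 genes was called (24.9% below and 5.04% above; 5.62% and 0.953% past the ratios).

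**Figure D4:**
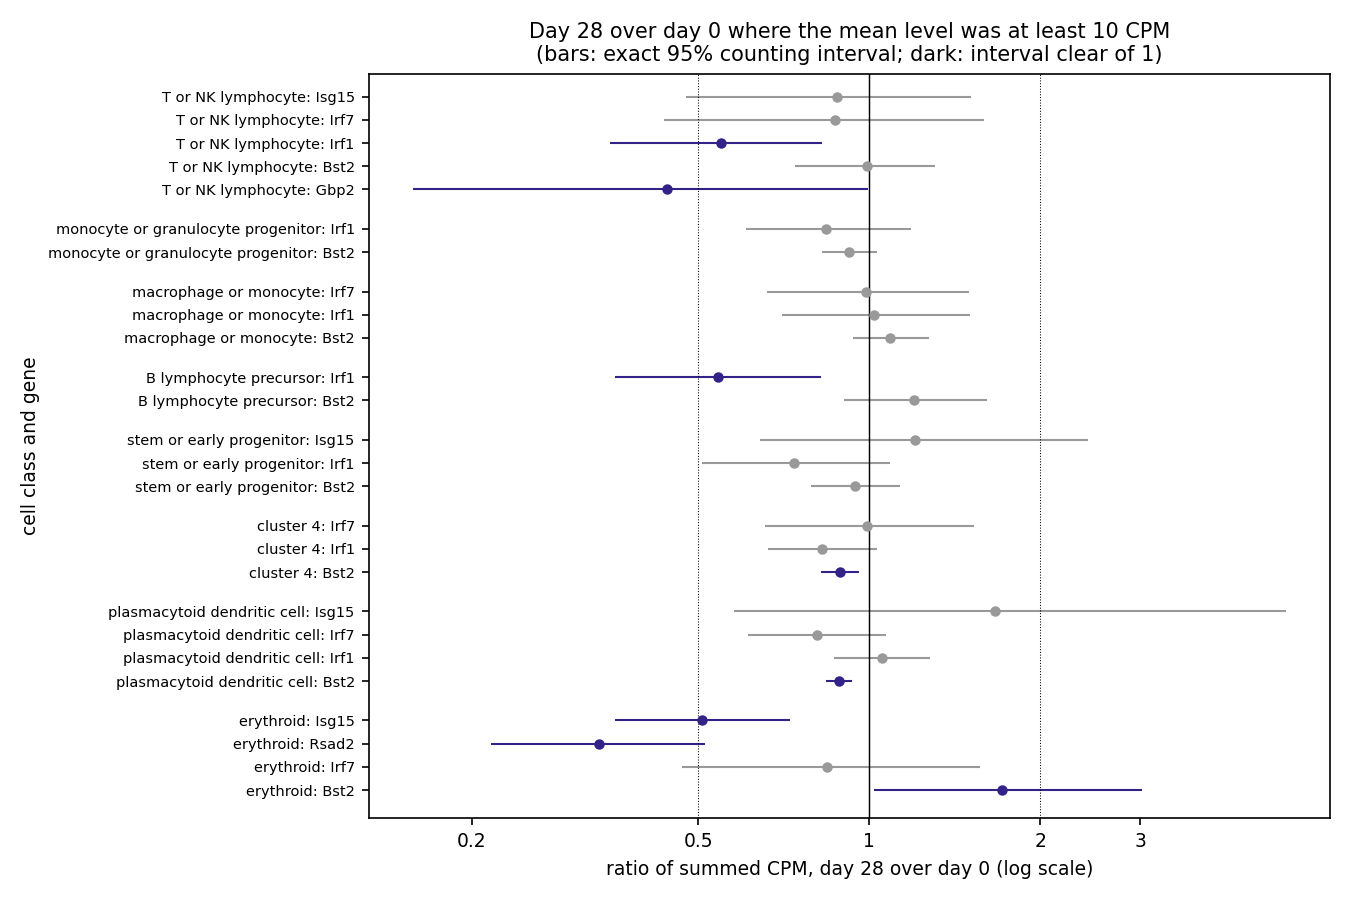
Ratio of summed CPM, day 28 over day 0 (horizontal axis, log scale), for the 26 combinations of cell class and gene with a mean level of at least 10 CPM; bars are exact 95% counting intervals, dark points have an interval clear of 1, and dotted lines mark ratios of 0.5 and 2. The 8 dark points include *Isg15*, *Rsad2* and *Bst2* in erythroid-like cells and *Irf1* in T/NK-like and B lymphocyte precursor-like cells.

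Over all kept cells each of the 9 had a lower level at day 28. *Irf1* went from 49.0 to 28.4 CPM, *Isg15* from 14.7 to 9.12, *Irf7* from 17.6 to 11.4 and *Gbp2* from 8.81 to 2.98. *Bst2* went from 269 to 230. These totals mix cell types in different proportions and are not changes within cells. How many of all genes were lower in such totals was not counted, so the fall is not read as particular to the 9.

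The rest of the interferon pathway was read from lists of 118 matched genes. Of the ligands, no UMI of *Ifnb1*, *Ifna1*, *Ifna4*, *Ifnk*, *Ifnl2* or *Ifnl3* was found in either library, and *Ifna2* had 1 UMI. *Ifng*, interferon gamma, was present in T/NK-like cells, at 23.8 CPM on 112 UMIs at day 0 and 62.2 on 42 UMIs at day 28, a ratio of 2.61 (1.79 to 3.76). The change in cluster make-up of this class given above applies to it as well. Over all kept cells *Ifng* had 115 UMIs at day 0 and 69 at day 28, so part of the day 28 UMIs lay in other classes. In pDC-like cells it had 0 and 8 UMIs. Of the receptors, *Ifnar2* had the highest level in any class, in pDC-like cells (288 and 259 CPM), while over all kept cells *Ifngr1* was higher than *Ifnar2* (102 and 64.2 CPM at day 0). The log2 ratio of *Ifnar2* over the 8 classes had a median of 0.25. *Ifngr2*, compared in 7 classes, had a median of -0.39 and was lower at day 28 in all of them. Its interval included 1 in B lymphocyte precursor-like, stem or early progenitor-like and pDC-like cells. *Il10rb* had a median of -0.38 and *Ifnar1* of -0.24.

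The 41 other type I response genes had lower medians at day 28 than all genes in 7 of the 8 classes, by the values shown in the plot of pathway lists. In stem or early progenitor-like cells the gap was slight, at -0.240 against -0.238. In monocyte or granulocyte progenitor-like cells the list was higher, at 0.02 against -0.12. Medians were also lower for the sensors and adaptors in 8 classes, the other interferon regulatory factors in 7 and the receptors in 6. For the gamma response genes it was 5, the negative regulators 4 and the signalling genes 2. In T/NK-like cells 9 of 25 measured members had an interval below 1 and 0 above (13.3% and 14.8% of all genes), and their median log2 ratio was -0.50 against -0.01 for all genes. The change in cluster make-up of this class applies here too. In B lymphocyte precursor-like cells 10 of 15 lay below 1 and 0 above (22.5% and 5.47% of all genes), with a median of -0.62 against -0.20. In macrophage or monocyte-like cells it was 10 of 20 below and 2 above (25.6% and 7.98% of all genes), with a median of -0.32 against -0.13. Below 1 lay 4 of 14 in erythroid-like (11.3% of all genes), 5 of 23 in pDC-like (9.97%) and 6 of 22 in cluster 4 cells (15.1%). In stem or early progenitor-like cells it was 7 of 20 (24.9%), and in monocyte or granulocyte progenitor-like cells 6 of 16 (31.7%). In the same order 0, 1, 1, 1 and 0 lay above 1 (17.0%, 5.69%, 6.7%, 5.04% and 9.85% of all genes). *Ly6e*, a surface protein of the Ly6 family and the most abundant of the list, was lower at day 28 in all 8 classes, with log2 ratios from -0.94 to -0.54. In pDC-like cells it stood at 3127 and 1723 CPM. *Ifi47*, an interferon-inducible GTPase, was lower in all 7 classes where it was compared, from -1.74 to -0.82. *Daxx* had a median of -0.87 over 8 classes, with values from -1.87 to 0.38, while *Eif2ak2*, the RNA-activated kinase PKR, had a median of 0.54 and *Dtx3l* of 0.31.

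Among signalling genes *Irf9*, a DNA-binding factor that recognises the ISRE, was lower in all 6 classes compared (median -0.63, from -1.13 to -0.15). Its interval lay below 1 only in macrophage or monocyte-like (0.467 to 0.858) and stem or early progenitor-like cells (0.279 to 0.755). The median of all genes ran from -0.24 to 0.11 over the 8 classes. The kinase gene *Jak2* had a median of 0.43, *Stat3* of 0.09 and *Jak1*, the most abundant, of -0.08. *Irf8*, a factor needed for dendritic cell development, went from 4082 to 2328 CPM in pDC-like cells, a ratio of 0.570 (0.534 to 0.609), and its median over the 8 classes was -0.49. Of the other interferon regulatory factors *Irf5* had a median of -0.43, *Irf3* of -0.22 and *Irf2* of -0.07. *Unc93b1*, the chaperone of the nucleic acid-sensing Toll-like receptors, went from 820 to 467 in the same cells. Among sensors and adaptors *Mavs*, the mitochondrial adaptor of the RNA sensors, had the lowest median (3 classes, from -1.34 to -0.08), then the kinase gene *Ikbke* (-0.48); the highest were *Mb21d1*, the DNA sensor cGAS, at -0.03 and *Tbk1* at -0.26. In the gamma response list, *Irgm1*, an interferon-inducible GTPase, had a median of -0.84 over 3 classes, and *Tap2*, a peptide transporter of antigen presentation, was lower in all 7 classes (-1.08 to -0.56). *Wars*, a tryptophanyl-tRNA synthetase, had a median of 0.38 over 8 classes and *Gbp3* of 0.34 over 4, and the immunoproteasome gene *Psmb8*, the most abundant, of -0.17. Of the negative regulators *Ptpn6* had a median of -0.61, *Pias1* of -0.30, *Irf2bp2* of 0.06 and *Ptpn2* of 0.16.

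**Figure D5:**
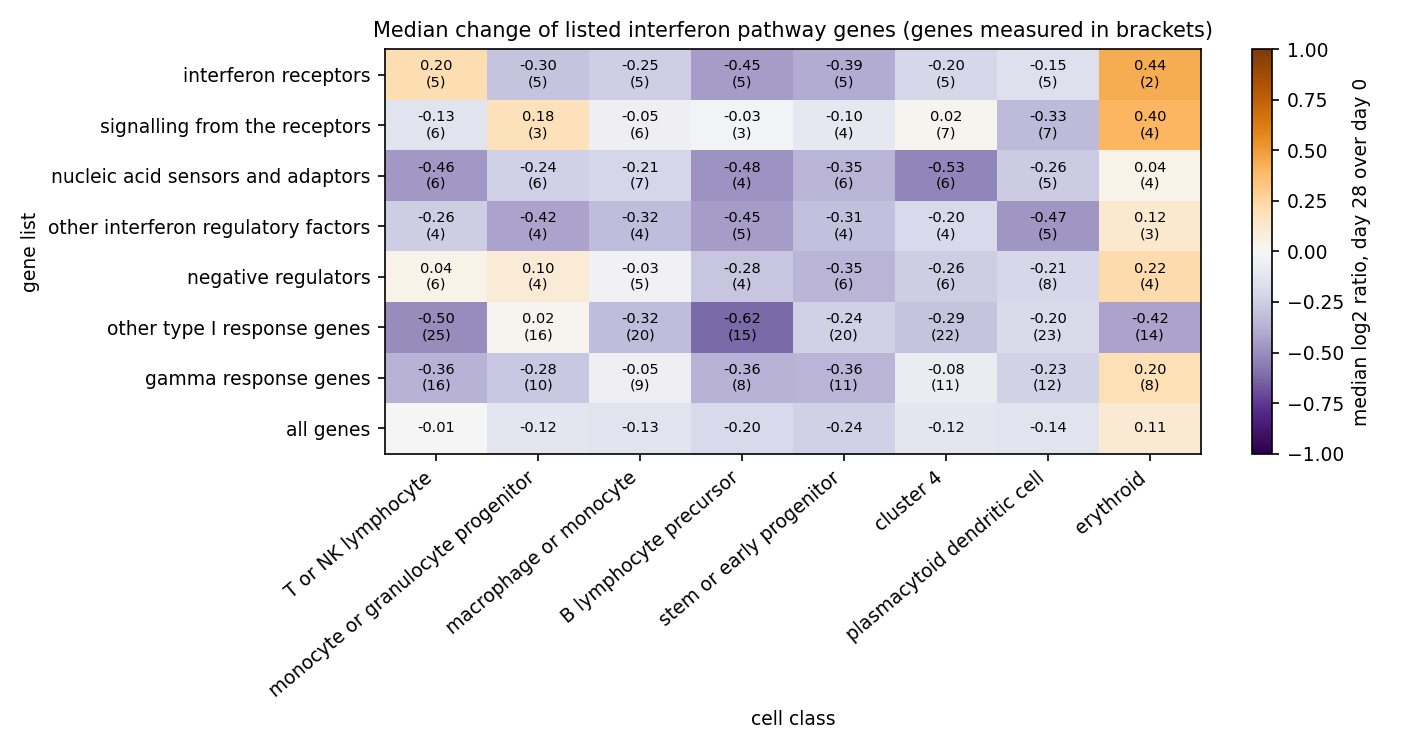
Median log2 ratio, day 28 over day 0, of the measured genes in each interferon pathway list (rows; number of genes in brackets) in the 8 compared cell classes (columns), with all genes in the last row; purple is lower and orange higher at day 28. The other type I response genes are at -0.50 in T/NK-like and -0.62 in B lymphocyte precursor-like cells, against -0.01 and -0.20 for all genes.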

How the data were processed

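The authors deposited unnormalized UMI counts for each gene in each barcode, and all were found to be whole numbers. Cell Ranger 2.1.1, STAR and build mm10 are named in the submitters' processing notes. The labels name 3' v1 chemistry.

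Barcodes with at least 500 genes and at most 10% mitochondrial UMIs were used (2 and 17 failed). The doublet caller's own cut-off marked 4 and 8 cells, so the highest-scoring 57 and 56 were left out, a rate of 0.8% per 1000 cells. Clustering (scanpy 1.11.5, leidenalg 0.10.2, resolution 0.8, 2000 variable genes) left out the 9 genes and the listed pathway genes. A cluster was named where its best marker score was at least 1 and led by 0.25, with 3 markers in 10% of cells; these limits were set after seeing the data. *Mx2*, *Trac*, *Trbc1* and *Trbc2* were not matched. UMIs were summed per class and library. Intervals are 95% and cover counting error only (exact Poisson, Clopper-Pearson, and conditional binomial for ratios), and a count of 0 allows up to 3 UMIs. Ratios were also computed on simulated class sums drawn as Poisson counts, the same model that the intervals assume. That simulation left out the clumping of UMIs in single cells, so it cannot check the intervals where a few cells carry a gene. Genes below a mean of 10 CPM were not compared, apart from values given as such in the closing section.

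All 9 genes are described. Of each pathway list the text names, by rule, the 2 with the lowest and the 2 with the highest median log2 ratio and the one with the highest level in any class; *Ifng* and the cells with the most *Isg15* were picked with their values in view. The 9 genes and the lists were chosen with earlier results of these data known. Promoter sequences are from RefSeq (GRCm38.p6), and all 9 genes matched.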

Additional observations from a re-analysis of the deposited data

Results flagged for a closer look

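For 3 of the 9 genes the libraries differed in opposite directions between classes, with counting intervals clear of 1 on both sides; the difference between classes itself was not tested. For *Bst2* all of these values met the mean of 10 CPM used in the report, whereas the *Isg15* value in cluster 4 and both *Oasl2* values lie below it and rest on few UMIs. *Isg15* had a day 28 over day 0 ratio of 3.25 (1.16 to 12.6) in cluster 4, on 4 and 33 UMIs, and of 0.509 in erythroid-like cells. *Bst2* had a ratio of 1.71 in erythroid-like cells, where it was lowest, and of 0.884 in plasmacytoid dendritic cell-like cells and 0.888 in cluster 4, where it was highest. *Oasl2* had a ratio of 0.373 (0.170 to 0.825) in stem or early progenitor-like cells, on 14 and 16 UMIs, and of 7.50 (1.04 to 329) in plasmacytoid dendritic cell-like cells, on 1 and 9 UMIs. The day 28 *Oasl2* UMIs of the latter came from 6 cells, and the day 28 *Isg15* UMIs of cluster 4 from 24.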

How the results depend on the processing

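No paired analysis was possible because each group has 1 library. Shares over all kept cells at day 0 and day 28 were 23.7% and 35.0% without thinning, 15.3% and 13.8% thinned to 4000 UMIs, 3.10% and 2.25% for 3 or more of the 9, 6.71% and 5.16% with *Irf1* left out, and 0.728% and 0.426% for the 5 effectors. The summed level of the 9 had log2 ratios (day 28 over day 0) of -0.40 in T/NK-like cells (-0.70 without *Bst2*, -0.12 in cluster 8 alone), -0.13 in B lymphocyte precursor-like cells (-0.63 without *Bst2*), and -0.61 in erythroid-like cells (-0.95 without *Bst2*, -1.46 after thinning, 0.73 in cells under 10% globin). In monocyte or granulocyte progenitor-like cells it was -0.12 (0.026 after thinning) and in macrophage or monocyte-like cells 0.13 (-0.13 after thinning, 0.43 at resolution 1.2). In plasmacytoid dendritic cell-like cells it was -0.16 (-0.00094 without *Bst2*, -0.083 in cells with no fewer UMIs than the shallowest day 28 cell). Divided by the median ratio of all genes, it was -0.022 there, -0.036 in cluster 4 and 0.055 in stem or early progenitor-like cells. In erythroid-like cells with at least 10% globin UMIs the log2 ratio of *Bst2* was -0.22; there *Isg15* and *Rsad2* were at -0.66 and -1.03, under 10% at 0.81 and -0.13, and after thinning all erythroid-like cells at -1.65 and -2.88. Without the 2 cells richest in each, *Rsad2* was at -0.91 and *Gbp2* in T/NK-like cells at -2.69. Under 10% globin, 30 of the 46 day 28 *Isg15* UMIs lay in 1 cell, on which the 0.81 of *Isg15* and the summed 0.73 largely rest. The globin limits, cluster 8 and the 2-cell alternatives were chosen after seeing the data. Genes past a 2-fold ratio at a mean of at least 10 and at least 50 CPM numbered 826 and 169 (T or NK), 115 and 34 (monocyte or granulocyte progenitor), 152 and 33 (macrophage or monocyte), 338 and 66 (B precursor), 455 and 72 (stem or early progenitor), 397 and 46 (cluster 4), 855 and 96 (plasmacytoid dendritic), and 388 and 76 (erythroid). Classes that could not be matched under another clustering gave no value; at resolution 0.4 the macrophage or monocyte and stem or early progenitor classes merged with other progenitors. The cause of these movements was not tested.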
